A study of Homo sapiens with 4 samples.

Results

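Antisense noncoding RNAs are transcribed from the strand opposite to another gene, and 95 of them with appreciable expression in HCC1954 breast cancer cells are described here. They were selected on the annotation's antisense class and on their own level, at least 400 raw counts summed over 4 samples, without GAS5, ZFAS1 and the SNHG genes, which host small nucleolar RNAs. The table held 58735 genes, of which 5583 were antisense; 5484 of these lay below the limit and 4 (SNHG7, SNHG10, SNHG12 and ZFAS1) were left out by name. HCC1954 is an established HER2-amplified epithelial line grown from a human breast tumour. RNA-seq was performed on 2 shCON samples, which carried a scrambled control hairpin, and 2 shZDHHC15 samples, which carried a hairpin against ZDHHC15, a palmitoyltransferase that attaches fatty acids to proteins. Both hairpins came in the GIPZ lentiviral vector, the cells were not otherwise treated, and the labels do not say how many hairpins or cultures were used. The series text calls the knockdown stable, whereas the treatment label has plasmids transfected and cells collected 36 h later. The p-values therefore measure the spread between these samples, which may be technical.

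Antisense genes lie against their sense gene in several ways. In a head-to-head pair both genes start close together and run apart, often from one shared promoter region. In a tail-to-tail pair their ends overlap, and other antisense genes lie inside the span of the sense gene or stretch around it. Those inside the span can share exon bases with the sense gene. Some antisense RNAs act on their neighbour in cis, some host small RNAs, some bind proteins or small RNAs elsewhere in the cell, and most have no described role. The library kit does not mark the strand of origin, and whether the counting used strand information is not given in the sources used here. Reads from bases where exons of both strands overlap therefore cannot be assigned to one strand with certainty. The shared exon length is given beside some pairs only, and pairs described without it can share exon bases too. Among these are RUSC1-AS1 with FDPS (693 bases), ELF3-AS1 with RNPEP (636), NOP14-AS1 with NOP14 (605) and AP003068.2 with CAPN1 (433). Others are NKILA with PMEPA1 (343 bases), ARHGAP5-AS1 with ARHGAP5 (304) and SERTAD4-AS1 with SERTAD4 (174).

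A few sequences carry what follows. AC020916.1, ranked 3 by total counts but 64 by level per kilobase among these antisense genes, contains the hairpins of 3 microRNAs. They lie within its exon and on its own strand. Their mature sequences, from RefSeq, are printed with the seed (bases 2 to 8, which pair with target messenger RNAs) in capitals, and no seed is shared between them.
miR-23a-3p: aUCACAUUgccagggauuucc
miR-23a-5p: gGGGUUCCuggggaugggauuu
miR-27a-3p: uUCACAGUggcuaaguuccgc
miR-27a-5p: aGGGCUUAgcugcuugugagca
miR-24-3p: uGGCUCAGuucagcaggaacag
miR-24-2-5p: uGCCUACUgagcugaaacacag

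The promoters of LUCAT1, the member that rose most, of TGFB2-AS1 and SERTAD4-AS1, the members that fell most, and of NKILA, which fell with the gene it starts beside, follow from RefSeq on GRCh38.p14. Each window holds 250 bases before the RefSeq start and 50 after it, in the direction of transcription. Capitals mark matches to the motifs searched. In LUCAT1 (chr5:91314353-91314652, minus strand) they mark an antioxidant response element core (TGACNNNGC, found on the reverse strand) that overlaps an AP-1 site (TGAGTCA). In SERTAD4-AS1 (chr1:210233836-210234135, minus strand) they mark an AP-1 site on the reverse strand, in NKILA (chr20:57709933-57710232, plus strand) 2 SP1 boxes (GGGCGG), and TGFB2-AS1 (chr1:218345629-218345928, minus strand) holds no match.
LUCAT1: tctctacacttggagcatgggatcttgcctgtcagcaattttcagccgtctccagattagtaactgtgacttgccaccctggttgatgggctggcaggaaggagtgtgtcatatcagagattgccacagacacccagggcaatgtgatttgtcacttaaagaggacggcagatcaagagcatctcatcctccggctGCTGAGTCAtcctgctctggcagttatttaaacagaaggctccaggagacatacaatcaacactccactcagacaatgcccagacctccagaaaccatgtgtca
TGFB2-AS1: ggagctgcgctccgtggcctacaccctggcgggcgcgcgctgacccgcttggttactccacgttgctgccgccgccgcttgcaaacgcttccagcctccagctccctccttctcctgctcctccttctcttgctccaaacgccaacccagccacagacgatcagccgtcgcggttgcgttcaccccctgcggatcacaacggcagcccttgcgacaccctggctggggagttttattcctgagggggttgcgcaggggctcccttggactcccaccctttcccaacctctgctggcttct
SERTAD4-AS1: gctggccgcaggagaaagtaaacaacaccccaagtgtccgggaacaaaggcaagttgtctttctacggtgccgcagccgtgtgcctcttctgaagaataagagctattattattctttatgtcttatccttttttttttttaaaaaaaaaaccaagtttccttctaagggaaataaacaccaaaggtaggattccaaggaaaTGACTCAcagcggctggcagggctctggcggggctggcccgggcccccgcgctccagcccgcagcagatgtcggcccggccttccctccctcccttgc
NKILA: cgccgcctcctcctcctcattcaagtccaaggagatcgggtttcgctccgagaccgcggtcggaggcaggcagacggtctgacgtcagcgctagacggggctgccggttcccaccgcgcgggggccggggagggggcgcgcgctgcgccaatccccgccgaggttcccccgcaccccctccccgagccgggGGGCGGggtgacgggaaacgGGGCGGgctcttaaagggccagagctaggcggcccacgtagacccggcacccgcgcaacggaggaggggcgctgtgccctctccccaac

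Promoter windows were found for 42 members, 48 windows in all, since some genes have several starts. SP1 boxes lay in 52.1% of these windows and in 45.0% of the 35116 windows of all genes, on either strand. TEAD cores (GGAATG, bound by the partners of YAP) lay in 16.7% against 14.0%, and interferon-stimulated response element cores (GAAA, any 2 bases, GAAA) in 2.08% against 3.57%. The antioxidant response element core lay in 14.6% against 13.3%, and the AP-1 site in 8.33% against 4.95%; both were added to the search after the LUCAT1 sequence had been seen. A match says only that these letters are present.

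The 4 libraries held between 17560982 and 19118704 counts. ZDHHC15 itself was read 17617 and 15716 times in shCON and 0 times in both shZDHHC15 samples. This was at least 6055-fold lower against a floor of 3 counts in each shZDHHC15 sample (edgeR adjusted p = 1.86e-14). The epithelial markers ERBB2, EPCAM, CDH1, KRT5, KRT8, KRT18 and KRT19 were all detected, ERBB2 with 92598 to 101910 counts. Levels are given as CPM, counts scaled to the size of each library, for the antisense genes with TMM factors. The summed level of these 7 epithelial markers was between 15784 and 16696 CPM in shCON and between 9767 and 9994 CPM in shZDHHC15, with log2 fold changes from -1.62 for KRT8 over -0.05 for CDH1 to 0.44 for KRT19. PGR stood at 0 or 1 count in every sample, whereas ESR1, the oestrogen receptor gene, went from 161 and 103 counts to 308 and 305. The 6 leukocyte markers summed to at most 0.769 CPM. Among the 5 fibroblast markers COL1A1 had 100 to 214 counts and each of the others at most 5, with a sum of 5.73 to 6.89 CPM in shCON and 8.73 to 11.8 CPM in shZDHHC15. The 3 endothelial markers summed to 47.7 and 48.0 CPM in shCON and 104 and 99.3 CPM in shZDHHC15, with PECAM1 and CDH5 higher and VWF at no more than 7 counts. These markers moved with the groups, and their part in the changes below was not tested. In such bulk samples fewer cells of a type and less RNA per cell cannot be told apart.

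The 95 antisense genes together took 0.149% and 0.146% of the counts in shCON and 0.132% and 0.140% in shZDHHC15, so both shZDHHC15 samples lay below both controls. All antisense genes of the table took 0.311% and 0.305% against 0.289% and 0.306%, where the groups overlapped. Sense-intronic genes, a sign of unspliced RNA, took 0.0242% and 0.0212% against 0.0250% and 0.0274%, and mitochondrial genes 2.18% and 2.07% against 2.58% and 2.63%. With 2 samples against 2, a permutation test cannot go below p = 0.33, so these shares are given without a test. The members lay on 21 chromosomes, with 11 on chromosome 1 and 7 on chromosome 20. Their exons summed to between 321 and 37852 bases with a median of 2544, and 22 had 1 exon. Per kilobase of exon, the median member stood at 3.82 CPM, against 5.13 CPM for tested protein-coding genes and 0.739 CPM for the other tested antisense genes.

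FGD5-AS1, a widely expressed RNA described as a sponge of microRNAs, had the most reads, with 2118 and 1880 counts in shCON and 2086 and 2009 in shZDHHC15. The groups overlapped, and its log2 fold change was -0.09 ± 0.10 (SE). FGD5, the gene of the other strand with which it has its longest overlap, had 0 to 2 counts. FGD5-AS1 also overlaps NR2C2 on that strand, by 841 bases. NR2C2 was read 953 and 651 times in shCON and 1290 and 1239 times in shZDHHC15 (log2 fold change 0.54, edgeR adjusted p = 0.00414). Per kilobase, AC093001.1 stood highest, at 76.6 ± 6.55 CPM (SD, n = 2) in shCON and 70.3 ± 6.45 in shZDHHC15. The next 3 over all samples were TGFB2-AS1, AC026740.1 and AC099850.3. In shCON they stood at 58.5 ± 1.49, 22.5 ± 0.216 and 38.7 ± 6.16 CPM per kilobase, and in shZDHHC15 at 17.4 ± 0.281, 36.2 ± 0.844 and 19.5 ± 4.91. TGFB2-AS1 was thus the highest of the 3 in shCON and AC026740.1 in shZDHHC15, where TGFB2-AS1 and AC099850.3 lay within their spread. Those just inside the limit of 400 were AC245452.1 with 408 counts, DLGAP1-AS1 with 404 and AC007319.1 with 403. Just outside were AFAP1-AS1 with 398, GATA2-AS1 with 397 and ENTPD1-AS1 with 392.

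Upon ZDHHC15 knockdown, 31 of the 95 antisense genes were lower and 12 were higher (edgeR quasi-likelihood test, Benjamini-Hochberg adjusted p under 0.05 over all 15817 genes tested). All 95 passed the filter on low counts. The lower genes made up 32.6% of the members, where the background over all genes tested was 20.3%, and the higher genes 12.6% against 21.7%. In either direction 45.3% of members passed, against 42.0% of all genes, 45.9% of protein-coding genes and 16.7% of the other 777 antisense genes tested, whose median total was 78 counts against 692 for the members. The median log2 fold change of the members was -0.18, with quartiles at -0.58 and 0.14, beside 0.02 for all genes tested. At a log2 fold change beyond 1 there were 5 higher and 8 lower members, that is 5.26% and 8.42%, against 7.51% and 3.79% of all genes. Groups did not overlap in CPM for 70 members, 73.7%, which lies near the 72.5% of all genes, and no called member had overlapping groups. Without the filter on low counts the number of lower members was 20, and among the 24 members whose exons overlap no other exon 10 were lower and 3 higher.

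**Figure D1:**
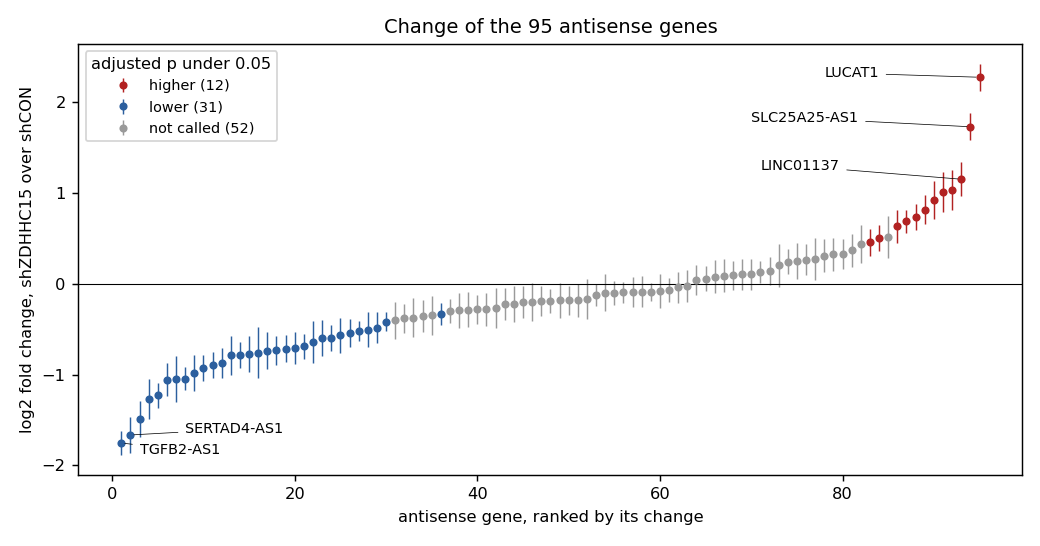
The log2 fold change of shZDHHC15 over shCON (vertical axis) of each of the 95 antisense genes, ranked from the strongest fall to the strongest rise; bars show the standard error and colours the edgeR call at an adjusted p under 0.05. The 31 lower genes reach -1.75 (TGFB2-AS1), the 12 higher genes reach 2.28 (LUCAT1), and the 52 genes not called lie between -0.40 and 0.52.

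Among the antisense genes that rose, LUCAT1 changed most. LUCAT1 (ENSG00000248323, chr5:91054834-91314547, minus strand) is a stress-responsive long noncoding RNA first described in smoke-exposed airway cells, and its promoter is the first of those printed above. It was read 136 and 103 times in shCON and 632 and 628 times in shZDHHC15. Both knockdown samples lay far above both controls, at 33.0 ± 1.38 CPM against 6.78 ± 0.957 (SD, n = 2), a 4.84-fold rise (log2 fold change 2.28 ± 0.15 (SE), edgeR adjusted p = 2.59e-08). ADGRV1, a very large adhesion receptor of the inner ear and retina on its other strand, went from 23 and 14 to 70 and 59 counts, and the 2 genes share no exon base. The difference between the changes of LUCAT1 and ADGRV1 was 0.60 ± 0.43 and did not pass (limma adjusted p = 0.387).

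SLC25A25-AS1 (ENSG00000234771, chr9:128108581-128118693, minus strand) ends against SLC25A25, a mitochondrial carrier of ATP-Mg and phosphate. Its counts were 212 and 155 in shCON and 596 and 731 in shZDHHC15, without overlap, and it rose 3.32-fold (log2 fold change 1.73 ± 0.15, edgeR adjusted p = 4.73e-07). SLC25A25 instead fell, from 1444 and 1390 counts to 1090 and 1284, by 0.38 on the log2 scale (edgeR adjusted p = 0.00806). This call of SLC25A25 was lost without shZDHHC15 replicate 1 and in a test against a fold change of 1.2. Relative to SLC25A25, the antisense RNA rose by 2.12 ± 0.19 on the log2 scale, a pair difference past the threshold (limma adjusted p = 9.43e-24). As in all pair tests here, this p rests on a variance pooled over the 662 pairs, not on the spread of this pair alone. The genes share 665 exon bases, 10.4% of the antisense exons.

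The other 8 of the 10 largest rises were smaller, with log2 fold changes from 1.15 to 0.63. LINC01137 went from 80 and 87 counts to 207 and 198 (1.15 ± 0.19, edgeR adjusted p = 2.19e-04). It starts 140 bases from ZC3H12A, which encodes an RNase that degrades inflammatory messenger RNAs and which itself rose by 0.59 on the log2 scale. AL157838.1 went from 70 and 62 counts to 162 and 133, beside ZNF217, a zinc finger oncogene amplified in breast cancers, which rose by 0.58. RUSC1-AS1 went from 86 and 74 counts to 139 and 192, beside a rise of 0.38 in FDPS, an enzyme of the mevalonate pathway whose transcript it meets tail to tail. RUSC1, which RUSC1-AS1 also overlaps by 3281 bases, was not called. It was read 1681 and 1720 times in shCON and 1923 and 2132 times in shZDHHC15 (log2 fold change 0.13, edgeR adjusted p = 0.326). ARHGAP5-AS1 went from 111 and 103 counts to 173 and 189, beside a rise of 0.92 in ARHGAP5. In all 4 of these pairs the antisense gene and its neighbour rose, although FDPS lost its call without shZDHHC15 replicate 1 and in a test against a fold change of 1.2.

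For the remaining 4 rises the gene on the other strand did not rise past the threshold. AC007319.1 went from 72 and 54 counts to 128 and 149 (log2 fold change 1.01), while CALCRL, a peptide hormone receptor inside it, had at most 1 count in any sample. TFPI, which AC007319.1 also overlaps by 90434 bases, was read 148 and 152 times in shCON and 125 and 127 times in shZDHHC15 (log2 fold change -0.38, edgeR adjusted p = 0.111). AL365181.3 went from 151 and 145 counts to 266 and 303 (0.82), and BCAN, the brain proteoglycan brevican, was read 29, 25, 52 and 44 times. AC026740.1 went from 322 and 302 counts to 525 and 572 (0.69), against 519 and 514, then 470 and 535 for TPPP, a tubulin polymerisation factor that contains it. ELF3-AS1 went from 220 and 237 counts to 417 and 414 (0.74), while RNPEP, an aminopeptidase with which it has its longest overlap, fell by 0.44. ELF3, an epithelial transcription factor that it also overlaps, was read 10804 and 10712 times in shCON and 13347 and 13278 times in shZDHHC15 (log2 fold change 0.18, edgeR adjusted p = 0.107).

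**Figure D2:**
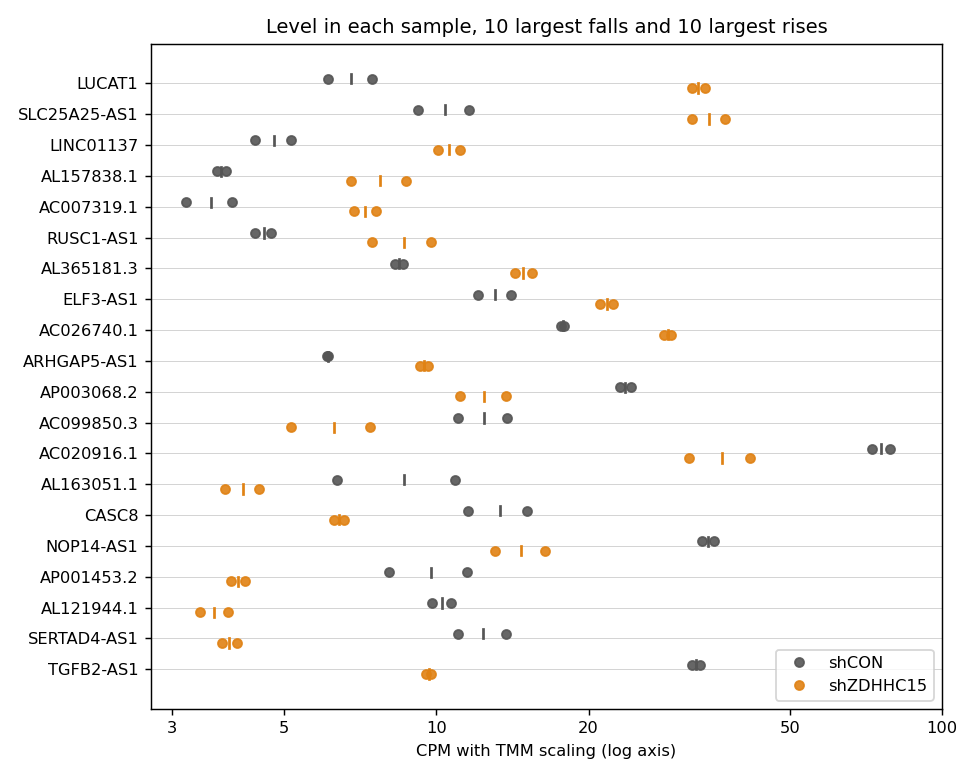
Level of the 10 antisense genes that rose most and the 10 that fell most, in CPM with TMM scaling on a log axis; each point is a sample, grey for shCON and orange for shZDHHC15, and the short bars are the group means. In none of the 20 genes do the groups overlap, and AC020916.1 has the highest control level, at 75.7 CPM, which is not scaled to gene length.

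Among the antisense genes that fell, TGFB2-AS1 changed most. TGFB2-AS1 (ENSG00000232480, chr1:218344196-218345678, minus strand) starts 556 bases from TGFB2, a ligand of the TGF-β receptors, and runs away from it. It was read 605 and 540 times in shCON and 178 and 192 times in shZDHHC15. Every knockdown value was below every control value, with 9.67 ± 0.157 CPM against 32.6 ± 0.829 (SD, n = 2), 3.37-fold lower (log2 fold change -1.75 ± 0.13, edgeR adjusted p = 1.30e-07). TGFB2 fell too, from 5871 and 4609 counts to 1881 and 2599, by 1.35 on the log2 scale (edgeR adjusted p = 8.19e-07). No exon base is shared, since the gene spans do not overlap.

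SERTAD4-AS1 (ENSG00000203706, chr1:210231456-210234047, minus strand) fell from 201 and 232 counts to 70 and 79, 3.17-fold (log2 fold change -1.66 ± 0.20, edgeR adjusted p = 1.17e-05). SERTAD4, which starts head to head with it, fell less, from 1211 and 937 counts to 652 and 718, and the pair difference of -0.89 ± 0.25 passed (limma adjusted p = 0.00794). AL121944.1 (chr6:28078792-28081130) fell from 179 and 180 counts to 72 and 67, by 1.49 on the log2 scale, and ZNF165, the zinc finger gene it starts beside, fell from 540 and 394 counts to 202 and 240. AC099850.3 fell from 252 and 186 counts to 96 and 145, by 0.98, inside PRR11, a gene linked to cell cycle progression, which fell by 1.03. AL121944.1 and AC099850.3 share 156 and 97 exon bases with these partners, 22.7% and 30.2% of their own exons.

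AC020916.1 (ENSG00000267519, chr19:13823880-13842928, minus strand) is the gene with the 3 microRNA hairpins whose mature sequences are printed above. The cluster of miR-23a, miR-27a and miR-24 is expressed in many tissues, and each of these microRNAs has a broad set of described targets. Counts of AC020916.1 were 1324 and 1330 in shCON and 588 and 821 in shZDHHC15, the third highest total of all members. The knockdown samples differed from each other but both lay below the controls, at 36.7 ± 7.25 CPM against 75.7 ± 4.40, 2.06-fold lower (log2 fold change -1.04 ± 0.13, edgeR adjusted p = 1.58e-05). ZSWIM4, which meets it tail to tail and shares 2286 exon bases, was read 496 and 474 times in shCON and 545 and 574 times in shZDHHC15 (log2 fold change 0.08). The pair difference was -1.14 ± 0.18 (limma adjusted p = 4.23e-08). The hairpin genes MIR23A, MIR27A and MIR24-2 themselves had 0 counts in every sample, and mature microRNAs were not measured, so the values concern the host transcript.

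Further strong falls differed in what the other strand did. NOP14-AS1 fell from 611 and 598 counts to 243 and 322, by 1.22 on the log2 scale, whereas NOP14, a nucleolar factor of small ribosomal subunit assembly, fell by 0.28. CASC8, from a noncoding stretch upstream of MYC, fell from 211 and 255 counts to 122 and 123, by 1.05, and PCAT1 on its other strand, itself a member, was read 298, 271, 378 and 354 times. AP003068.2 fell from 421 and 409 counts to 207 and 270, by 0.93, beside a fall of 0.28 in CAPN1, a calcium-dependent protease. In the pairs with NOP14, PCAT1 and CAPN1 the difference between antisense and partner passed the pair test, at -0.95, -1.28 and -0.65. The falls of NOP14 and CAPN1 themselves each lost their call in 6 of 13 alternative fits. AP001453.2 fell from 147 and 194 counts to 73 and 82, by 1.26; it has the largest share of exon bases that other genes cover, 61.1%. Its longest overlap is with AP001453.3, read 17, 23, 22 and 21 times, but it also overlaps PPP1R14B, which encodes an inhibitor of protein phosphatase 1 and fell from 10745 and 11235 counts to 5477 and 6488, by 1.01. AL163051.1 was read 116 and 184 times in shCON and 83 and 75 times in shZDHHC15 (-1.05 ± 0.25, edgeR adjusted p = 0.00393), beside a change of 0.03 in PAPOLA, the poly(A) polymerase. Its call was lost without the filter on low counts and without shCON replicate 2, where its log2 fold change was -0.63.

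The genes were then set against the genes they overlap. Of the 95, 81 overlapped a gene of the other strand, and the partner was taken as the one with the longest overlap; 71 partners were protein coding and 66 were abundant enough to be tested. The log2 fold changes of antisense gene and partner correlated over these 66 pairs with Pearson's r = 0.42 and Spearman's rho = 0.44, and over 596 pairs of other antisense genes with r = 0.37 and rho = 0.30. These values are descriptions across genes within the same 4 libraries, and genes are not independent replicates. For the 13 pairs that share no exon base, r was 0.65 and rho 0.52. Among these 13, LUCAT1 and ADGRV1 had the largest changes, and r without this pair was not computed. Over the 66 pairs, both genes were lower in 10 pairs and higher in 5, and they moved in opposite directions in 3. In 12 pairs only the antisense gene was called, in 19 only the partner, and in 17 neither. Such counts were not made for the other antisense pairs. Taken singly, 20.3% of all genes tested were lower and 21.7% higher. The partners' median log2 fold change was 0.02, beside -0.18 for the 66 antisense genes.

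A test of the difference itself, on the log2 ratio of antisense over partner counts, called 19 of the 66 pairs, 28.8%. The background over all 662 antisense pairs was 13.0%, but it includes antisense genes with fewer reads. The median total was 78 counts for the 777 other antisense genes tested, against 692 for the members. Dropping pairs with fewer than 10 counts in any sample left 421 pairs, of which 76 were called. Among the 62 member pairs left, the antisense share rose in 5 and fell in 15. The part of read depth in the higher percentage of the members was not tested. Without this floor, the antisense share rose in 5 of the 66 pairs and fell in 14. These are 7.58% and 21.2%, against 6.34% and 6.65% of all 662 pairs. These counts rest on few samples: without shCON replicate 2 they were 2 and 0, without shCON replicate 1 they were 3 and 8, without shZDHHC15 replicate 1 they were 4 and 9, and without shZDHHC15 replicate 2 they were 4 and 7. Over all 662 pairs the calls in either direction, 86 with every sample, then numbered 3, 18, 42 and 37 in the same order.

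**Figure D3:**
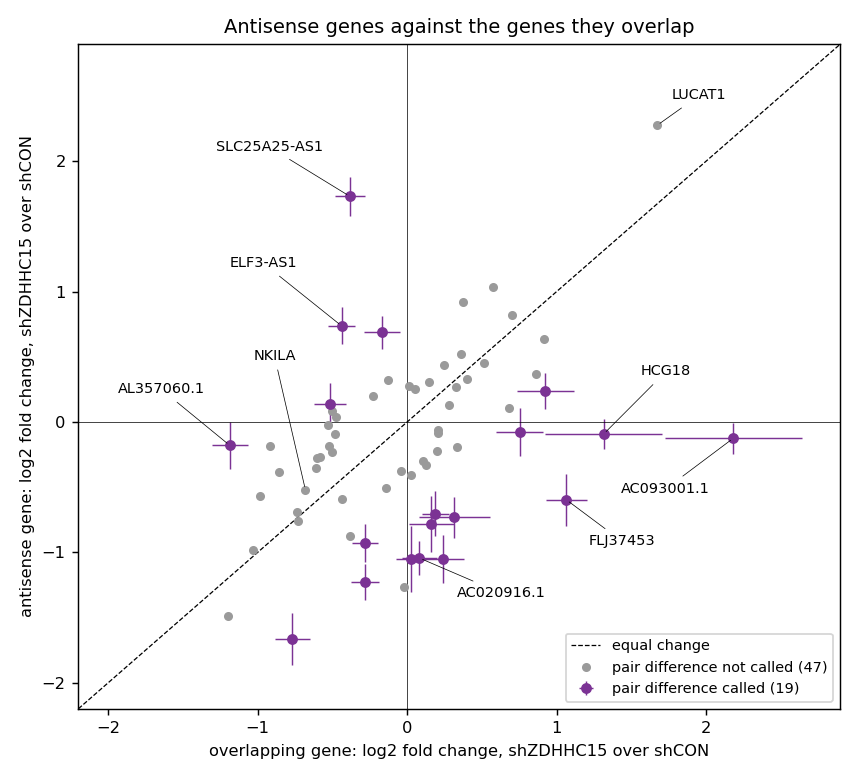
The log2 fold change of each antisense gene (vertical axis) against that of the gene it overlaps (horizontal axis), for the 66 tested pairs; purple points with standard error bars are the 19 pairs whose difference passed, grey points the other 47, and the dashed line marks equal change. SLC25A25-AS1 and ELF3-AS1 lie above it with falling partners, and FLJ37453 lies below it with a rising partner.

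Among the 66 tested pairs, the 3 with opposite calls were those of SLC25A25-AS1 and ELF3-AS1, described above, and FLJ37453. GABPB1-AS1 and GABPB1, given below, are not counted here, as the longest overlap of GABPB1-AS1 is with AC022087.1, which had 0 counts. FLJ37453 fell from 152 and 183 counts to 105 and 137, by 0.60 on the log2 scale (edgeR adjusted p = 0.0253). SPEN, a transcriptional corepressor that starts head to head with it, rose from 1955 and 1253 counts to 3674 and 3595 (log2 fold change 1.07), and the pair difference was -1.67 ± 0.23 (limma adjusted p = 1.06e-10). The genes share 40 exon bases. The fall of FLJ37453 lost its call in 6 of 13 alternative fits.

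In other pairs only the partner moved. TNFAIP3, which encodes the NF-κB inhibitor A20, fell from 11420 and 9939 counts to 4218 and 6037 (log2 fold change -1.19), while AL357060.1, which starts beside it, was read 357 and 334 times in shCON and 248 and 419 times in shZDHHC15, with overlapping groups. The pair difference was 0.98 ± 0.18 (limma adjusted p = 3.85e-06). AC093001.1 was read 723, 755, 768 and 711 times, again with overlap, while TM4SF18, a tetraspanin-like membrane protein gene at its end, went from 10 and 7 to 53 and 32 counts (log2 fold change 2.18 ± 0.46). HCG18 was read 669, 644, 616 and 728 times, beside the HLA pseudogene HLA-L with 19, 10, 33 and 46, whose call was lost in 4 of 13 alternative fits. TRIM39, which HCG18 also overlaps by 672 bases, was read 204, 170, 219 and 241 times (log2 fold change 0.18, edgeR adjusted p = 0.397). AC074117.1 was read 219, 230, 243 and 298 times, beside a fall of 0.52 in EIF2B4, a subunit of the translation factor eIF2B. AC074117.1 shares stretches of near-identical sequence with 12 other genes, so its counts are uncertain. The same holds for AC245452.1, NUTM2A-AS1 and NUTM2B-AS1. In the pair of FAM201A and ANKRD18A only the antisense gene was called: FAM201A fell from 251 and 223 to 146 and 165 counts, by 0.73, beside ANKRD18A with 124, 68, 114 and 146.

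The position against the partner, the gene of the other strand with the longest overlap, was then compared. Several members also overlap another gene in a different position. FGD5-AS1, for example, is counted as tail to tail with FGD5 but also lies head to head with NR2C2. Of the 95, 27 lay head to head and 27 tail to tail, 28.4% each, against 14.3% and 15.0% of the other antisense genes in the table. Only 15 lay inside the partner, 15.8% against 56.6%, whereas 12 stretched around a partner (12.6% against 4.57%) and 14 did not overlap any gene of the other strand (14.7% against 9.53%). The count limit chose the members, so these shares are a description. Among the head-to-head genes 12 were lower and 2 higher, among the tail-to-tail genes 7 and 5, among those inside the partner 4 and 2, and among those around it 0 and 2. Of the 14 without overlap, 8 were lower and 1 was higher. Over all genes tested 20.3% were lower and 21.7% higher, and no difference between positions was tested.

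**Figure D4:**
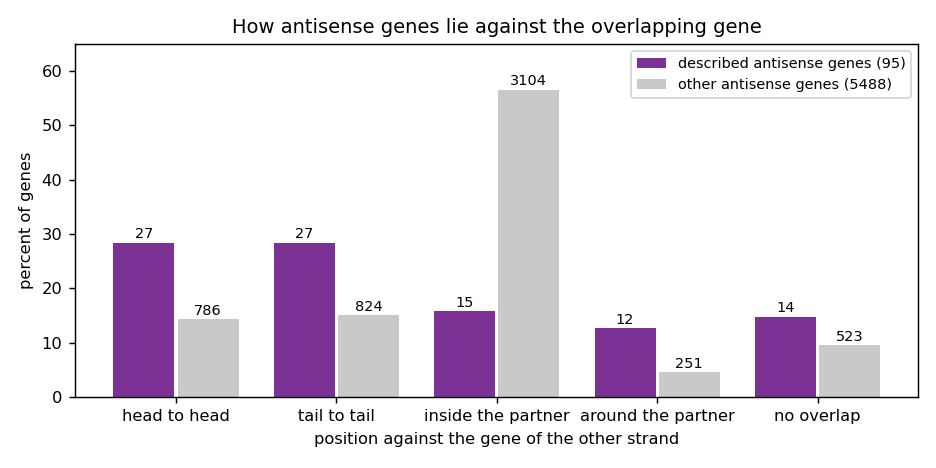
Percent of genes in each position against the gene of the other strand with the longest overlap, for the 95 described antisense genes (purple) and the other 5488 of the table (grey). The number of genes stands above each bar, and positions against other overlapping genes are not shown. Head-to-head and tail-to-tail genes make up 28.4% each of the described set, and genes inside the partner 15.8% against 56.6% of the others.

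For the 14 without overlap, the nearest gene of the other strand was at most 2381 bases away, and in 12 cases under 1000. Of these 14 neighbours 6 passed the test, against 42.0% of all genes tested. Besides TGFB2 and ZC3H12A, these were OTUD6B, ZYX, RPS21 and WASL. OTUD6B-AS1, with 1428 and 1164 counts in shCON and 981 and 1133 in shZDHHC15, fell by 0.42 next to OTUD6B, a deubiquitinase gene 6 bases away that fell by 0.47. AC093673.1 fell from 304 and 308 counts to 193 and 214 next to ZYX, the focal adhesion protein zyxin, which fell by 0.32. AL121832.2 fell from 216 and 241 counts to 184 and 173 next to RPS21, a ribosomal protein gene, which fell by 0.55. In these 3 pairs and with TGFB2 both genes were lower, and with ZC3H12A both were higher. AL445524.1, AC006329.1, AL118516.1 and AL050341.2 were lower too, with log2 fold changes of -0.90, -0.78, -0.78 and -0.64. Their neighbours TSNAX, IFT22, TBC1D22A and ZMPSTE24 were not called, with log2 fold changes of -0.26, -0.31, -0.11 and 0.007. The call of AL121832.2 was lost in 6 of 13 alternative fits, among them those without shCON replicate 2 and without shZDHHC15 replicate 2, and that of OTUD6B-AS1 in 2, among them the fit without shZDHHC15 replicate 1. WASL, an activator of actin branching, rose by 0.49, while AC006333.2, which begins at the adjoining base, was read 159, 120, 150 and 173 times. AC093673.1, AC006333.2 and the lower members whose neighbours were not called were named after their values were seen.

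Of 10 antisense RNAs on a list of those with a described function, 1 fell and 1 rose past the threshold. Among all genes tested 20.3% were lower and 21.7% higher. The list is not complete, as it does not hold LUCAT1. NKILA (chr20:57710183-57712780, plus strand), which restrains NF-κB signalling by masking phosphorylation sites of its inhibitor, fell from 989 and 978 counts to 702 and 793 (log2 fold change -0.52 ± 0.11, edgeR adjusted p = 0.00137). PMEPA1, a TGF-β-induced gene that starts head to head with it, fell from 35869 and 35694 counts to 22771 and 26016, by 0.68, and the pair difference of 0.16 ± 0.15 did not pass (limma adjusted p = 0.536). HOTAIR, the HOXC RNA known for binding chromatin modifiers, went from 197 and 183 counts to 280 and 288 (log2 fold change 0.46 ± 0.15, edgeR adjusted p = 0.0231). HOTAIR lost this call in 7 of 13 alternative fits, among them every fit without 1 of the samples. The other 8 were FGD5-AS1, HCG18, THUMPD3-AS1, ASB16-AS1, HOXA-AS2, MCM3AP-AS1, ITGB2-AS1 and TMPO-AS1, with log2 fold changes between -0.30 and 0.44.

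Sorted by the gene beside them, 3 members belonged to HOX clusters, which hold the transcription factors of body patterning. HOTAIR rose together with HOXC11, which went from 473 and 502 to 713 and 808 counts. HOXA-AS2 was read 156, 146, 176 and 178 times (log2 fold change 0.11) and HOXC13-AS 110, 99, 85 and 114 times (-0.20), while HOXA3 and HOXC13 rose by 0.69 and 0.33. Of 4 members beside C2H2 zinc finger genes, AL157838.1 rose, AL121944.1 fell, and ZNF213-AS1 and AC009113.1 had log2 fold changes of -0.27 and -0.18. TGFB2-AS1 was the only member whose neighbour stands in the list of Hippo pathway genes and YAP targets. MCM3AP-AS1, beside MCM3AP of the cell cycle and replication list, was read 102, 79, 118 and 149 times (log2 fold change 0.44, edgeR adjusted p = 0.104). AL121832.2 was the only member beside a gene of the list of mitochondrial and ribosomal proteins, which does not hold SLC25A25, and 0 members lay beside genes of the interferon and antigen presentation list.

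A few further pairs were chosen after their values were seen, because their sense genes are abundant. KRT7-AS fell from 344 and 294 counts to 170 and 300 (log2 fold change -0.57, edgeR adjusted p = 0.0276), inside KRT7, a keratin of simple epithelia, which fell from 53706 and 55196 counts to 27603 and 32476. They share 282 exon bases, 16.7% of the antisense exons. AC015712.2 fell from 880 and 670 counts to 447 and 601, by 0.69, and ALDH1A3, a retinoic acid-forming enzyme at its end, fell by 0.74 with 1585 shared exon bases. GABPB1-AS1 rose from 606 and 437 counts to 697 and 916, by 0.51, while GABPB1, which it also overlaps, fell from 449 and 409 counts to 304 and 353, by 0.51. KTN1-AS1, read 140, 131, 150 and 130 times, starts beside KTN1, which encodes the kinesin-binding protein kinectin and rose by 0.75.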

How the data were processed

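The authors deposited 1 table of raw counts of reads per gene for 4 samples, not normalized, with positions, strand, gene length and biotype. Per the labels, total RNA was made into libraries with the unstranded NEBNext Ultra kit. The submitters' processing notes name HISAT2, StringTie, SAMtools and hg38. All 58735 gene models equalled GENCODE 29 on GRCh38. Library totals ranged from 17560982 to 19118704.

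Counts were tested with edgeR 4.0.16 (R 4.3.3): filterByExpr, TMM, glmQLFit and glmQLFTest, with Benjamini-Hochberg adjustment over 15817 genes. Standard errors came from the fold change and F. Pair differences were tested with limma 3.58.1 on log2 ratios (0.5 added to each count) of antisense over partner, with voom weights, over 662 pairs. DESeq2 1.42.0 served as an alternative. Both tests were tested on simulated data with log2 changes of 1.5. In the simulation of all 15817 genes, 87% of 200 changed genes were recovered by edgeR with 3.87% false calls, and 61.7% of 60 changed pairs among 662 by limma. Near-identical stretches (at least 150 bases, 97% identity) were sought with BLAST 2.17.0. Within groups, counts of the members varied 3.10 (shCON) and 3.90 (shZDHHC15) times as much as counting noise gives (chi-square per degree of freedom).

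Genes named are the 10 largest called rises and falls, the 6 with most counts, the 4 highest per length, 3 on each side of the limit, up to 6 pairs with the largest called difference in each direction, examples of each gene list, and their partners; exceptions are stated. The members and lists were chosen with earlier results of these data known.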

Additional observations from a re-analysis of the deposited data

How the results depend on the processing

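Counts of 10 higher and 20 lower members resulted without a filter, 11 and 25 with the DESeq2 Wald test and 12 and 24 with library size only; over all genes 15.4%, 33.8% and 40.9% were called in these fits, and with library size only 3926 genes were higher and 2545 lower. Across the fits that left out 1 sample, the higher members numbered 10 to 12, the lower 22 to 31, and the members' median log2 fold change ran from -0.20 to -0.15. That median was -0.11 with library size only (0.09 over all genes) and -0.22 with upper-quartile factors. At a limit of 200 counts it was -0.12, with 23 higher and 43 lower of 198; at 1000 counts it was -0.30, with 5 and 15 of 33; and over the 24 members whose exons overlap no other exon it was -0.29, with 3 and 10. Pairs with a higher antisense share numbered 8 when the partner was the gene with the most counts, and 2 to 4 without 1 sample; pairs with a lower share then numbered 0 to 9. A fit that leaves out a sample assumes that the lone sample of its group varies like the other group. The cause of these differences was not tested. Among the members named by the rule and their partners, the sign changed for 3 members and 4 partners, none of them called in the reported fit: over the fits without 1 sample the log2 fold change ran from -0.39 to 0.016 for DLGAP1-AS1, from -0.56 to 0.12 for AL357060.1, from -0.64 to 0.015 for ZNF213-AS1, from -0.20 to 0.78 for TOP3B, from -0.10 to 0.14 for PAPOLA, from -0.30 to 0.26 for AP001453.3 and from -0.0061 to 0.73 for ANKRD18A. PAPOLA was at -0.00433 with upper-quartile factors and AP001453.3 at 0.054 with library size only. Samples with the same number did not deviate together (r = 0.03 over all genes), and a replicate block gave 12 higher and 32 lower members. At these counts, a log2 fold change within 0.2 of 0 has a standard error of similar size.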
